A study of Mus musculus with 73 samples.

Results

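The cytochrome P450 monooxygenases (*Cyp*), UDP-glucuronosyltransferases (*Ugt*), cytosolic glutathione S-transferases (*Gst*) and cytosolic sulfotransferases (*Sult*) were measured in the epithelium of the mouse small intestine after diphtheria toxin (DT) ablation of *Lgr5*-expressing cells, and in single intestinal cells of untreated mice. Members were chosen by symbol (*Cyp*, *Ugt* or *Sult* followed by a digit, or *Gst* followed by a letter and a digit) and by a sum of at least 20 UMIs (unique molecular identifiers, each standing for 1 captured mRNA molecule) over the 8 bulk samples. Of 128 symbols of these forms, 126 remained without pseudogenes and without *Cyp51*, the lanosterol demethylase of cholesterol synthesis. The sum selected 73 of them, which were 44 *Cyp*, 7 *Ugt*, 18 *Gst* and 4 *Sult* genes, among 15502 genes with a UMI. The member with the lowest sum was *Cyp2c70*, with 0, 0, 4 and 3 UMIs in the control samples and 0, 4, 3 and 6 in the DT samples. Just outside the limit stood *Ugt2b38* and *Cyp2c67*, each with 17 UMIs in all, and 33 of the 53 symbols under the limit had at least 1 UMI. The sum was taken over both groups together, and it served only to choose the members.

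Bulk libraries were made by mcSCRBseq, a 3′-end method that counts UMIs, from epithelial cells shaken off the proximal jejunum with EDTA. All 8 mice were males of 4 months and carried the knock-in *Lgr5*(GFP-ires-DTR/+), in which a GFP and the DT receptor are expressed from a single *Lgr5* allele. The 4 DT mice received toxin and the 4 control mice received the vehicle, saline, both intraperitoneally, and tissue was taken 48 h later. The control mice carried the same allele, so each comparison is of toxin against vehicle within this genotype. The receptor follows *Lgr5*, which is expressed in crypt base stem cells of the epithelium as well as in the telocytes of the villus tip, and effects of losing either cannot be told apart here. Replicates 1 and 2 of each group belonged to batch a, and replicates 3 and 4 to batch b, as a row named batch in the study's count table gives it. The single cells came from the jejunum of 8 untreated C57BL/6 males of 3 months (mice A to H), sorted by 12 gates, most of them set on PDGFRa, into plates for MARS-seq.

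Total UMIs ranged from 748458 in control 2 to 4210158 in control 3, so 1 UMI stood for 0.225 to 1.47 CPM. Levels are given as scaled CPM, UMI counts of a gene relative to the TMM-scaled library size. *Lgr5*, the gene that carries the receptor, had 62, 52, 47 and 90 UMIs in the control samples and 56, 67, 24 and 30 in the DT samples, with a log2 fold change of DT over control of -0.75 (SE 0.32, edgeR quasi-likelihood test, Benjamini-Hochberg adjusted p = 0.258). The summed level of 5 epithelial markers (*Epcam*, *Krt8*, *Vil1*, *Krt19*, *Cldn7*) was 5015 to 6159 scaled CPM in the control samples and 5146 to 5501 in the DT samples. The 7 immune markers summed to 162 to 1106 and 82.7 to 636, the 5 mesenchymal markers to 5.74 to 15.8 and 2.43 to 16.7, and *Cdh5*, *Kdr* and *Sox10* had no UMI. Among epithelial lists, 5 of 5 tested tuft markers, 3 of 5 tested Paneth markers and 2 of 6 villus tip markers passed the test as lower after DT, and 0 of 6 villus bottom markers passed. In bulk tissue, fewer cells of a type and less RNA per cell cannot be told apart.

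These enzymes make foreign and endogenous lipophilic compounds easier to excrete. Cytochromes P450 insert an oxygen atom, and the 3 transferase families then attach glucuronic acid, glutathione or sulfate, which is known as conjugation. Many of the genes are targets of ligand-activated or stress-activated factors, among them Ahr (aryl hydrocarbon receptor), Nr1i2 (pregnane X receptor), Nr1i3 (constitutive androstane receptor) and Nfe2l2 (the antioxidant factor Nrf2). In the small intestine they are known mainly from absorptive enterocytes, where Cyp3a enzymes take part in first-pass metabolism of oral drugs.

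Most members lie in gene clusters. By GENCODE annotation on GRCm38, 7 *Gstm* members lay within 149.074 kb of chromosome 3 (chr3:107895821-108044894), 3 *Gsta* members within 173.015 kb of chromosome 9 (chr9:78182774-78355788), 9 *Cyp2c* members on chromosome 19 (chr19:39007019-40187333), and 6 *Ugt2* members on chromosome 5 (chr5:86889767-87337195). Of 9 *Cyp3a* members on chromosome 5, *Cyp3a13* (chr5:137892932-137921619) lay far from the others, which began at chr5:145345279. Neighbours in such clusters are close in sequence, and reads of *Gsta1* and *Gsta2*, *Gstp1* and *Gstp2*, *Cyp3a41a* and *Cyp3a41b*, and the *Cyp2c* genes may be split or swapped in counting. *Ugt1a10* stands in these counts for a locus whose transcripts share their 3′ exons, so its level is uncertain as that of a single isoform.

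Promoters of the members were read from RefSeq on GRCm38.p6, in the 250 bases before each start, for 66 of the 73 members, which had 79 promoters. The 3 motifs searched on both strands were GCGTG, the core that Ahr binds, TGACNNNGC, the core that Nfe2l2 binds, and CAAAGTCCA, a site of Hnf4a. GCGTG was in 16 promoters of members (20.3%) and in 28.2% of the 32851 promoters searched, and TGACNNNGC was in 5 (6.33%) and 10.2%. The promoters of a single chromosome were left out of the search. CAAAGTCCA was in 9 promoters of members (11.4%) and in 0.384% of the promoters searched. The 9 were the *Cyp* genes *Cyp2c40*, *Cyp2c65*, *Cyp2c68*, *Cyp2c69*, *Cyp2c70*, *Cyp3a11*, *Cyp3a16*, *Cyp3a41a* and *Cyp3a41b*, each with the motif on the gene's own strand and with none of the other motifs overlapping it. These genes come from neighbouring copies, so the 9 matches are not independent. A match is a string of letters and not a measured site. The windows of 60 bases around the motif are shown for 6 of these genes because they let the *Cyp2c* and *Cyp3a* copies be compared, with the motif in capitals, 5′ to 3′ on the gene's strand:
*Cyp2c40*, chr19:39812826-39812885, minus strand: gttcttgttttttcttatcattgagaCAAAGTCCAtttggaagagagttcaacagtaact
*Cyp2c69*, chr19:39886811-39886870, minus strand: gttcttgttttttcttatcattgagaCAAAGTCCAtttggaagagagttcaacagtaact
*Cyp2c68*, chr19:39741145-39741204, minus strand: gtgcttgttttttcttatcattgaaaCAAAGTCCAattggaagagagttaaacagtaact
*Cyp2c65*, chr19:39060864-39060923, plus strand: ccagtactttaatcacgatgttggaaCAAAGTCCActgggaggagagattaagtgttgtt
*Cyp3a11*, chr5:145879930-145879989, minus strand: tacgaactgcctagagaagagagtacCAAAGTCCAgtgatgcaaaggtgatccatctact
*Cyp3a41b*, chr5:145584792-145584851, minus strand: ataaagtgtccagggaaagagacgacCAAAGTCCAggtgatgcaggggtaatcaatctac

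The windows of *Cyp2c40* and *Cyp2c69* were identical over 60 bases, *Cyp2c68* shared 56 of 60 with them, and *Cyp2c65* shared 34 of 60 with *Cyp2c40*. *Cyp3a11* and *Cyp3a41b* shared 28 of 60. The sequence before the start of *Cyp1a1* and the window around the TGACNNNGC match of *Gstm7* are shown because these genes carry results below, and they hold the GCGTG core (54 bases before the start) and the match (129 bases before the start of the more downstream of its RefSeq starts) in capitals:
*Cyp1a1*, chr9:57697363-57697612, plus strand: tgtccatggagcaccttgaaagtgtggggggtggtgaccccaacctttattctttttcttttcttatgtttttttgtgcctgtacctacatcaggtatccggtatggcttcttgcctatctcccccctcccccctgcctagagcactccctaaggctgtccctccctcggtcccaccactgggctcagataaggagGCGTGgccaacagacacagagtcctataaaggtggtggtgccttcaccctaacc
*Gstm7*, chr3:107931710-107931769, minus strand: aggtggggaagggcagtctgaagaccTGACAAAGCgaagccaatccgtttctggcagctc

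No member passed the test after DT. A total of 49 of the 73 members (23 *Cyp*, 6 *Ugt*, 17 *Gst* and 3 *Sult*) were among the 8986 genes tested, which needed more than 1e-05 of a sample's UMIs in at least 2 samples. The other 24 had at most 236 UMIs in all. In the edgeR quasi-likelihood test with batch as a covariate, at a Benjamini-Hochberg adjusted p under 0.05, 0 members were higher and 0 were lower, against 2 genes higher (0.0223% of those tested) and 30 lower (0.334%) over all genes. At an adjusted p under 0.2 the counts of members were again 0 and 0, against 0.723% of genes higher and 1.66% lower. DESeq2 called 0 and 0 members at 0.05, where it called 0.501% of genes higher and 1.27% lower. At an unadjusted p under 0.05, 3 members were higher (*Gstm7*, *Gstt2* and *Gsta1*) and 1 was lower (*Cyp4v3*), against 8.84% and 8.44% of genes. The values of the 4 DT samples and the 4 control samples overlapped for every tested member, where 1.21% of genes had all DT samples above and 1.87% all below. The log2 fold change was above 0 for 29 of 49 members (59.2%) and for 50.5% of genes, without DT 3 it was above 0 for 15 of 49 (30.6%) and 51.4% of genes, and with all samples it had the same sign in both batches for 36 of 49 (73.5%) and for 69.9% of genes.

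More lenient settings called a few members. At an adjusted p under 0.2 in DESeq2, *Gsta1*, *Gsta4*, *Gstm7* and *Gstt2* were higher and *Cyp4v3* was lower, where 4.9% of genes were higher and 4.52% lower. Without the filter on low counts edgeR called 6 of 73 members higher at 0.05 (*Cyp1a1*, *Cyp2c29*, *Cyp4a10*, *Gsta1*, *Gsta4* and *Gstm7*) and 0 lower, where 1.95% of 15502 genes were higher and 2.15% lower. At 0.2 without the filter 11 members were higher and 2 lower, where 5.01% and 4.78% of genes were. The effect of DT differed between batches for 0 members in the filtered fit, with 0% of genes at an adjusted p under 0.05 and 0 members at an unadjusted p under 0.05, where 2.48% of genes were.

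The *Gst* family had the largest share of members with a higher value, and much of its median rested on DT 3. Glutathione S-transferases join glutathione to reactive compounds, and *Gsta* and *Gstm* encode the alpha and mu classes. The median log2 fold change of 17 *Gst* members was 0.33 (0.04 in batch a and 0.60 in batch b), with 13 above 0, and the median over all genes tested was 0.004. Without DT 3 the *Gst* median was 0.07, with 10 of 17 above 0. The summed *Gst* level was 2311, 1911, 2497 and 2965 scaled CPM in the control samples and 2070, 3929, 5878 and 2418 in the DT samples. DT 2 and DT 3 lay above every control sample, and DT 1 and DT 4 lay within the control range. The means were 2421 ± 438 (SD, n = 4) and 3574 ± 1735 (SD, n = 4). The villus bottom markers, which bear on this family because of the single-cell values below, summed to 3723 in DT 3, the lowest of the 8 samples, and to 18423 in DT 4, the highest, and their part in the *Gst* levels was not tested.

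**Figure D1:**
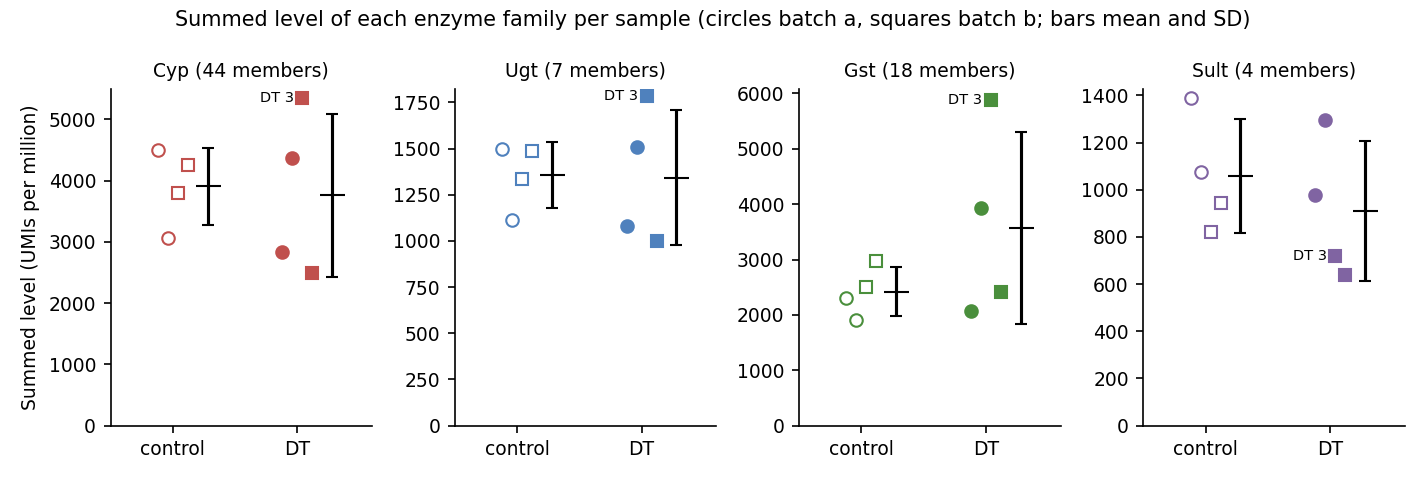
Summed level of each enzyme family in the 8 bulk samples, in scaled CPM, with open symbols for control and filled symbols for DT, circles for batch a and squares for batch b, and bars for the mean and SD of 4 mice. The *Gst* sum reached 5878 in DT 3 and 3929 in DT 2 against at most 2965 in the control samples, and in *Cyp* and *Ugt* the DT samples reach below and above the control range.

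Within *Gst* the alpha class stood highest. All 3 tested *Gsta* members had a log2 fold change above 0, with a median of 0.98, and the median was 0.99 within each batch. Without DT 3 all 3 stayed above 0, with a median of 0.47. *Gsta1* (chr9:78230656-78242684) encodes an alpha-class subunit abundant in intestine. Its level was 653, 707, 704 and 1028 scaled CPM in the control samples and 755, 1942, 2725 and 657 in the DT samples. Only DT 2 and DT 3 exceeded the control range, and DT 4 was close to the lowest control. The log2 fold change was 0.98 (SE 0.41, edgeR adjusted p = 0.258), 0.99 in batch a, 0.97 in batch b and 0.47 without DT 3. *Gsta4* (chr9:78182774-78209349), whose product conjugates the lipid peroxidation product 4-hydroxynonenal, had 62.5, 20.6, 54.1 and 131 in the control samples and 62.6, 152, 291 and 72.4 in the DT samples. Again DT 2 and DT 3 alone lay above all controls, with a log2 fold change of 1.13 (SE 0.55, edgeR adjusted p = 0.33) and of 0.63 without DT 3. *Gsta2*, whose reads *Gsta1* may share, had a log2 fold change of 0.58 (0.06 in batch a and 1.07 in batch b) and of 0.07 without DT 3.

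The mu class had 6 of 7 log2 fold changes above 0, with a median of 0.35 (0.03 in batch a and 0.65 in batch b), and 4 of 7 above 0 with a median of 0.06 without DT 3. *Gstm7* (chr3:107926334-107931817) had the smallest unadjusted p of the class. Its level was 8.61, 5.88, 10.1 and 15.1 scaled CPM in the control samples and 10.0, 20.4, 25.7 and 17.9 in the DT samples. DT 2, DT 3 and DT 4 lay above every control sample and DT 1 did not. The log2 fold change was 0.89 (SE 0.28, edgeR adjusted p = 0.223), 1.06 in batch a, 0.81 in batch b and 0.77 without DT 3. *Gstm1* had 106, 135, 213 and 146 in the control samples and 62.6, 203, 422 and 166 in the DT samples. *Gstm3* had 235, 85.3, 301 and 222 in the control samples and 110, 223, 604 and 213 in the DT samples. In both genes DT 1 was at or near the low end and DT 3 was about 2.0 times the next sample (1.99 and 2.01), and the log2 fold changes of 0.46 and 0.35 went to 0.06 and -0.09 without DT 3.

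Of the 7 tested *Gst* members outside these classes, 4 had a log2 fold change above 0, with a median of 0.13, and 3 did without DT 3, with a median of -0.06. *Gstt2*, of the theta class, had 35.9, 29.4, 52.7 and 70.6 in the control samples and 45.1, 49.1, 113 and 79.5 in the DT samples, so that DT 3 and DT 4 were above all controls. Its log2 fold change was 0.59 (SE 0.19, edgeR adjusted p = 0.223) and 0.46 without DT 3. *Gsto1*, an omega-class enzyme with thioltransferase activity, had 459, 400, 453 and 530 in the control samples and 499, 664, 657 and 490 in the DT samples, with a log2 fold change of 0.33 (SE 0.21, edgeR adjusted p = 0.422). *Gstp1*, of the pi class, had 307, 171, 357 and 398 in the control samples and 193, 243, 361 and 388 in the DT samples, with a log2 fold change of -0.08 (SE 0.22, edgeR adjusted p = 0.882). Each of its DT samples lay within the control range.

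**Figure D2:**
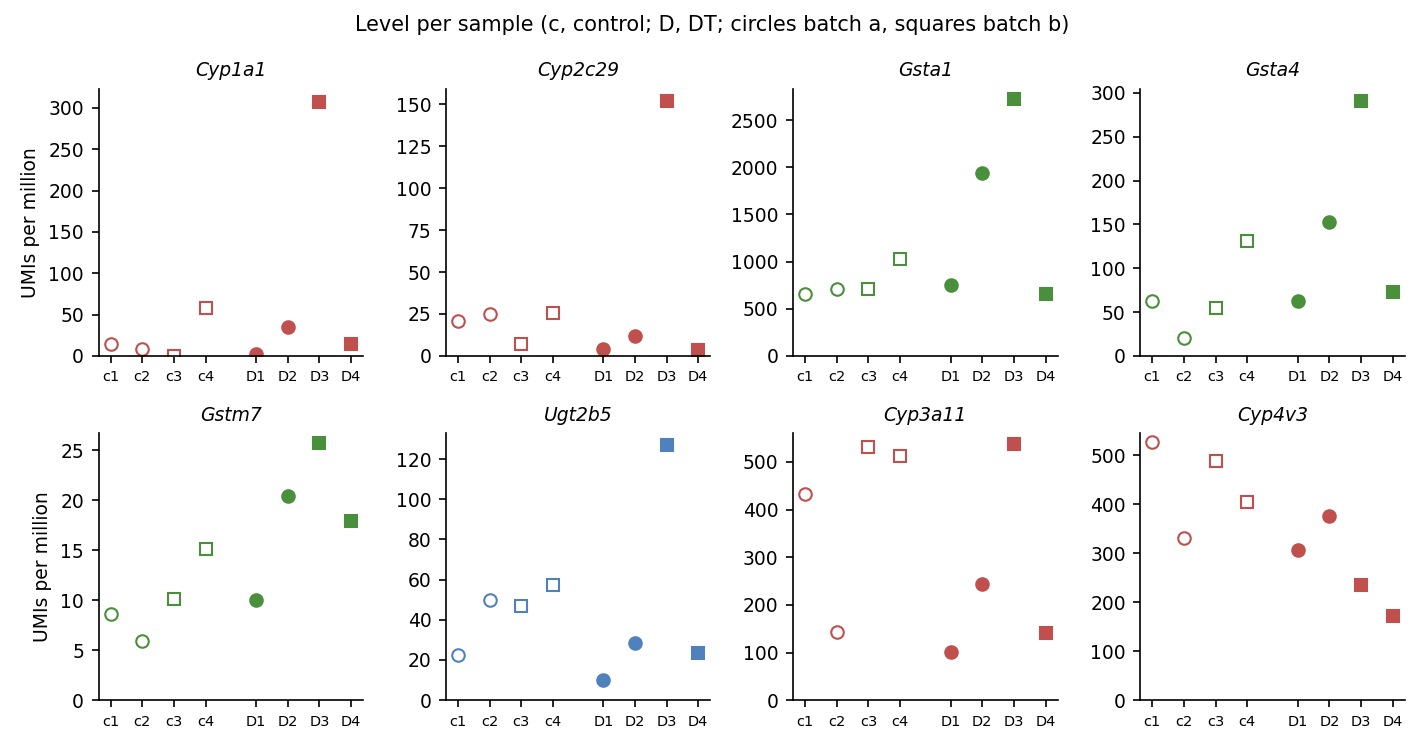
Level of 8 members in each bulk sample on a linear axis, in scaled CPM, for control 1 to 4 (c1 to c4, open) and DT 1 to 4 (D1 to D4, filled). DT 3 is the highest sample in 7 panels, by 5.36 times over the next sample for *Cyp1a1* and 5.87 times for *Cyp2c29*, and is not the highest for *Cyp4v3*.

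Cytochromes P450 split evenly. Of 23 tested *Cyp* members 12 had a log2 fold change above 0 and 11 below, the median was 0.003 (-0.04 in batch a and -0.01 in batch b, and -0.17 with 3 of 23 above 0 without DT 3), and the smallest adjusted p was 0.226. The summed *Cyp* level was 4494, 3069, 3798 and 4256 scaled CPM in the control samples and 2841, 4363, 5350 and 2495 in the DT samples. DT 1 and DT 4 lay below every control sample, DT 3 lay above them, and DT 2 lay within their range. The means were 3904 ± 627 (SD, n = 4) and 3762 ± 1334 (SD, n = 4).

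The 16 tested members of *Cyp1* to *Cyp3*, the subfamilies that act mainly on foreign compounds, had a median log2 fold change of 0.01, with 9 above 0, and of -0.23 with 2 above 0 without DT 3. *Cyp3a13* (chr5:137892932-137921619), of the Cyp3a drug-metabolizing subfamily, had 769, 509, 682 and 803 in the control samples and 455, 895, 919 and 493 in the DT samples, and its log2 fold change was 0.003 (SE 0.29, edgeR adjusted p = 0.997). *Cyp3a11* (chr5:145854426-145879964), a main target of the pregnane X receptor in mice, had 434, 143, 532 and 512 in the control samples and 102, 244, 538 and 141 in the DT samples. In both genes DT 1 and DT 4 lay below every control sample and DT 3 was the highest of the 8 samples. The log2 fold change of *Cyp3a11* was -0.68 (SE 0.46, edgeR adjusted p = 0.449), near equal in batch a (-0.74) and batch b (-0.62), and -1.17 without DT 3. *Cyp2d26*, a member of the Cyp2d subfamily, had 359, 253, 245 and 288 in the control samples and 349, 369, 391 and 234 in the DT samples, with a log2 fold change of 0.23 (SE 0.22, edgeR adjusted p = 0.587).

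*Cyp1a1* and *Cyp2c29* had the largest standard errors of the tested *Cyp* members. *Cyp1a1* (chr9:57687928-57703824), the classic target of the aryl hydrocarbon receptor, had 14.4, 8.82, 0.451 and 57.4 scaled CPM in the control samples and 2.5, 35.0, 307 and 14.1 in the DT samples. The control samples differed widely among themselves, and DT 3 stood apart from the other 7. The log2 fold change was 1.94 (SE 1.49, edgeR adjusted p = 0.517) with DT 3 and -0.07 without it. *Cyp2c29* had 20.8, 25.0, 6.99 and 25.9 in the control samples and 4.17, 12.2, 152 and 3.33 in the DT samples. Apart from DT 3 the DT samples lay in the lower part of the range, and the log2 fold change was 1.01 (SE 1.31, edgeR adjusted p = 0.713) with DT 3 and -1.67 without it. *Cyp4a10*, a fatty acid hydroxylase that did not reach the filter, had 8, 2, 4 and 12 UMIs in the control samples and 0, 16, 183 and 11 in the DT samples. Without the filter on low counts these 3 genes were called, with edgeR adjusted p of 3.08e-12, 0.00501 and 2.11e-10. The SE was then 0.25 for *Cyp1a1* and 0.26 for *Cyp2c29*, against 1.49 and 1.31 above. The counts were the same, so the p of these genes do not measure the spread between mice. For *Cyp2c29* and *Cyp4a10* the interaction with batch was then also called (edgeR adjusted p = 1.00e-08 and 0.0034). Within batch b, DT 3 and DT 4 differed widely, at 152 and 3.33 scaled CPM for *Cyp2c29* and 183 and 11 UMIs for *Cyp4a10*. In each of the 3, DT 3 held most of the UMIs of its group.

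The *Cyp4* subfamily, whose enzymes act mainly on fatty acids and eicosanoids, had a median log2 fold change of -0.07 over 6 tested members, with 3 above 0, and of -0.16 with 1 above 0 without DT 3. *Cyp4v3* (chr8:45304944-45333216), a fatty acid omega-hydroxylase, had 528, 331, 489 and 404 in the control samples and 306, 377, 236 and 171 in the DT samples. DT 1, DT 3 and DT 4 lay below every control sample and DT 2 lay within the control range. The log2 fold change was -0.74 (SE 0.25, edgeR adjusted p = 0.226), -0.33 in batch a, -1.13 in batch b and -0.73 without DT 3. *Cyp4f14*, which degrades leukotriene B4, had 734, 231, 671 and 657 in the control samples and 492, 689, 705 and 463 in the DT samples, with a log2 fold change of 0.05 (SE 0.33, edgeR adjusted p = 0.958).

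Glucuronosyltransferases differed by less than their spread. The summed *Ugt* level was 1496, 1113, 1334 and 1487 scaled CPM in the control samples and 1080, 1509, 1782 and 1002 in the DT samples, with means of 1357 ± 179 (SD, n = 4) and 1343 ± 368 (SD, n = 4). DT 1 and DT 4 were the lowest of the 8 samples and DT 3 and DT 2 the highest. The median log2 fold change of 6 tested members was 0.08, with 4 above 0, and -0.24 with 1 above 0 without DT 3. *Ugt1a10*, which stands for the *Ugt1a* locus (chr1:88055388-88219004) of bilirubin, phenol and drug glucuronidation, had 719, 484, 661 and 754 in the control samples and 545, 708, 1036 and 557 in the DT samples, with a log2 fold change of 0.11 (SE 0.25, edgeR adjusted p = 0.841). *Ugt2b34* had 600, 475, 481 and 498 in the control samples and 428, 607, 460 and 332 in the DT samples. Its log2 fold change was -0.18 (SE 0.22, edgeR adjusted p = 0.678).

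Among the other *Ugt2* genes, which act mainly on steroids and bile acids, *Ugt2b5* had 22.3, 50, 46.7 and 57.1 in the control samples and 10.0, 28.7, 127 and 23.3 in the DT samples. DT 3 was 2.22 times the next sample, and the log2 fold change of 0.05 went to -0.92 without it. *Ugt2a3* had a log2 fold change of -0.45 (SE 0.27, edgeR adjusted p = 0.392), and *Ugt2b35* had 0.29 (SE 0.22, edgeR adjusted p = 0.503).

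The 3 tested sulfotransferases all had log2 fold changes below 0, with a median of -0.19 and a smallest adjusted p of 0.46. Their family sum, *Sult1c2* included, was 1388, 1076, 823 and 945.5 scaled CPM in the control samples and 979.7, 1296, 719 and 639.9 in the DT samples, with means of 1058 ± 243 (SD, n = 4) and 908.6 ± 296 (SD, n = 4). Batch a was the higher batch in both groups, and DT 3 was not high in this family. *Sult1b1* (chr5:87513339-87538195), which sulfates phenols and thyroid hormone, had 897, 691, 500 and 592 in the control samples and 669, 822, 381 and 383 in the DT samples. Its log2 fold change was -0.30 (SE 0.21, edgeR adjusted p = 0.46), -0.09 in batch a and -0.52 in batch b. *Sult1d1*, which acts on catecholamines, had 375, 310, 225 and 251 in the control samples and 214, 371, 277 and 159 in the DT samples, with a log2 fold change of -0.17 (SE 0.24, edgeR adjusted p = 0.722). *Sult2b1*, a cholesterol and hydroxysteroid sulfotransferase, had 116, 75.0, 96.0 and 95.6 in the control samples and 96.0, 97.8, 54.8 and 95.7 in the DT samples, and only DT 3 lay outside the control range. *Sult1c2* was not tested and had 0, 0, 9 and 25 UMIs in the control samples and 1, 9, 24 and 5 in the DT samples.

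**Figure D3:**
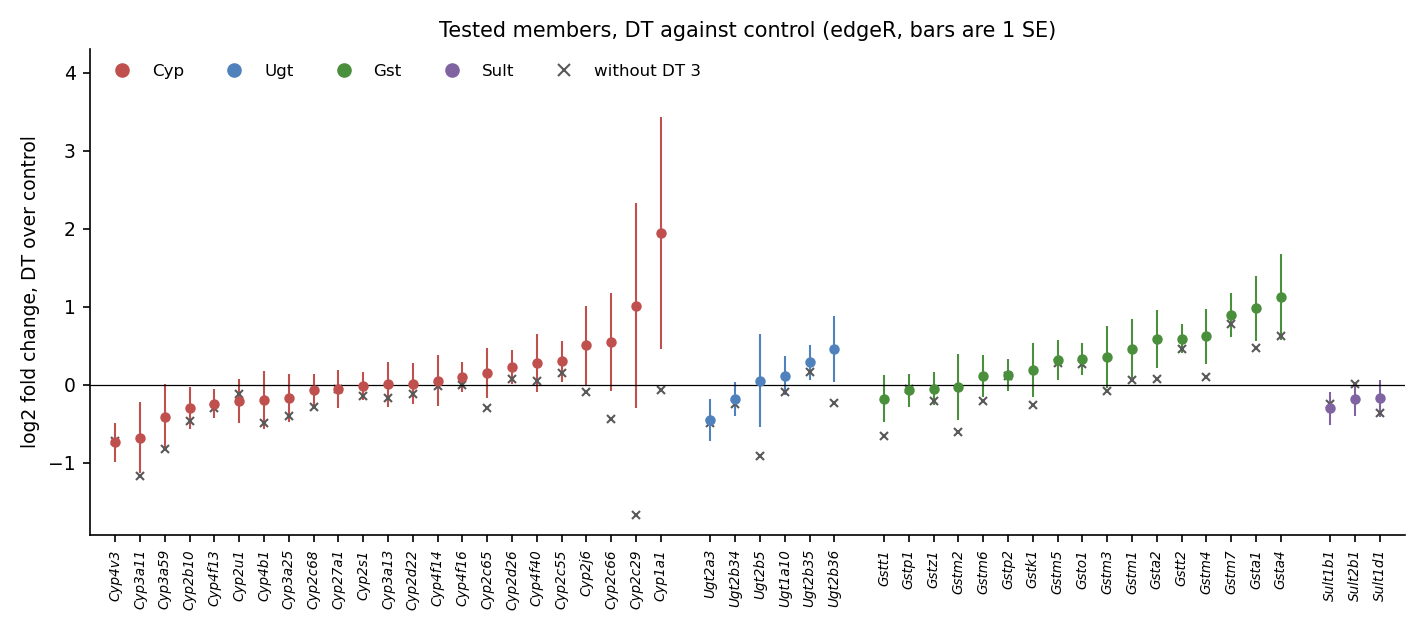
Log2 fold change of DT over control for the 49 tested members, grouped by family, with bars of 1 SE and crosses for the value without DT 3. No member passed an adjusted p of 0.05, the *Gst* median was 0.33, and *Cyp1a1* went from 1.94 to -0.07 without DT 3.

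DT 3 was the highest of the 8 samples for 28 of the 49 tested members (57.1%), where it was the highest for 20.2% of all genes tested. It was the highest for 6 of 7 *Gstm*, 3 of 3 *Gsta*, 9 of 16 *Cyp1* to *Cyp3*, 3 of 5 *Ugt2* and 2 of 6 *Cyp4* members, and for 0 *Sult* members. Leaving it out changed the sign of the log2 fold change of 16 of the 49 members and of 875 of 8905 genes. The log2 fold change moved by less than 1 SE for 31 of the 49 members and for 8553 of the 8905 genes. DT 4 was the lowest sample for 14 members (28.6%), against 11.4% of genes. Summed over all 73 members the level was 9689, 7169, 8452 and 9654 scaled CPM in the control samples and 6970, 11096, 13729 and 6555 in the DT samples, so the DT group held both the highest and the lowest value. DT 3 and DT 4 belong to the same batch and the same group.

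Genes that act with these enzymes were read from the same fit. Of 74 listed, 67 were tested, 1 was higher after DT and 0 were lower, and 32 of 67 log2 fold changes were above 0. *Akr1b8*, an aldo-keto reductase that reduces retinal and other aldehydes and a close copy of *Akr1b7*, with which it may share reads, had 0, 1.47, 8.34 and 5.39 scaled CPM in the control samples and 7.51, 19.0, 28.8 and 33.3 in the DT samples. Within each batch both DT samples lay above both control samples. Its log2 fold change was 2.47 (SE 0.41, edgeR adjusted p = 0.034), and the call was lost without DT 3 (2.68, adjusted p = 0.122), without control 1 (2.23, adjusted p = 0.103) and in 7 other settings. Of 13 tested receptors and regulators 0 passed, with a median of -0.05: *Ahr* had 0.13, its repressor target *Tiparp* 0.42, *Nfe2l2* -0.05, *Nr1i2* -0.36 and *Hnf4a* -0.11. Of 12 redox and cofactor partners 0 passed, with a median of 0.05, and *Gsr*, which regenerates reduced glutathione, had the smallest adjusted p (0.51, adjusted p = 0.233). Among 35 tested other enzymes the median was -0.01, and the membrane-bound glutathione transferase *Mgst1* had 0.82 (adjusted p = 0.232), the epoxide hydrolase *Ephx1* 1.09 (adjusted p = 0.242, and 0.40 without DT 3) and the quinone reductase *Nqo1* 0.21. Of 7 tested transporters 0 passed, with a median of -0.31, and the drug efflux pump *Abcb1a* had -0.64 (SE 0.23, adjusted p = 0.232).

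In single cells of untreated mice the 4 families were followed by cell class. Of 12346 wells on 35 plates that match a sample, 2347 held 400 to 8000 UMIs and at least 250 genes. Clustering gave 1641 epithelial-like cells, 336 mesenchymal-like cells, 200 immune-like cells and 170 cells in clusters that no marker list led. Median UMIs per cell were 1566, 1021 and 666.5 in the 3 named classes. Most cells came from gates on PDGFRa, 558 of the epithelial-like cells came from gates set for doublets, and 34.3% of them came from mouse B, so the shares of classes are those of the sort and are not given. Levels are CPM, the UMIs of a gene relative to all UMIs of the class, the mouse is the replicate, and a mouse counts where it had at least 10 cells of the class. Intervals are 95% exact intervals for counting error only, and no test was run between classes, since they come from clustering these same cells. The members were kept out of the clustering of the epithelial cells. They were not kept out of the clustering of all cells, which gave the 3 named classes.

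Epithelial-like cells had the highest summed level of each family among the 3 named classes. The members were chosen by their UMIs in bulk epithelium, so the choice itself favoured this order. In epithelial-like cells the summed levels were 3385 CPM for *Cyp* (4277 ± 1597 over mice, SD, n = 8), 680 for *Ugt* (855 ± 242), 2666 for *Gst* (2805 ± 780) and 1158 for *Sult* (1107 ± 238). In mesenchymal-like cells they were 390 for *Cyp*, 101 for *Ugt*, 2145 for *Gst* and 12.3 for *Sult*, with mice at 379 ± 67.8 (SD, n = 3) for *Cyp* and 2102 ± 381 (SD, n = 3) for *Gst*. In immune-like cells they were 119, 43.7, 562 and 81.2, and only 2 mice had at least 10 such cells. The 5 epithelial markers summed to 6941 CPM in epithelial-like cells, 175 in mesenchymal-like cells and 212 in immune-like cells, which is the level at which epithelial mRNA appeared in cells of other classes. Of 73 members 71 had a UMI in a kept cell, 31 had none in mesenchymal-like cells and 53 had none in immune-like cells. Those classes held 405040 and 160009 UMIs, against 3475228 in epithelial-like cells, so 1 UMI stood for 2.47 and 6.25 CPM. Of 54 members with at least 20 UMIs in epithelial-like cells, 16 and 35 had none there. The share over all genes was not counted, so a lack of UMIs is not read as a trait of the members.

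**Figure D4:**
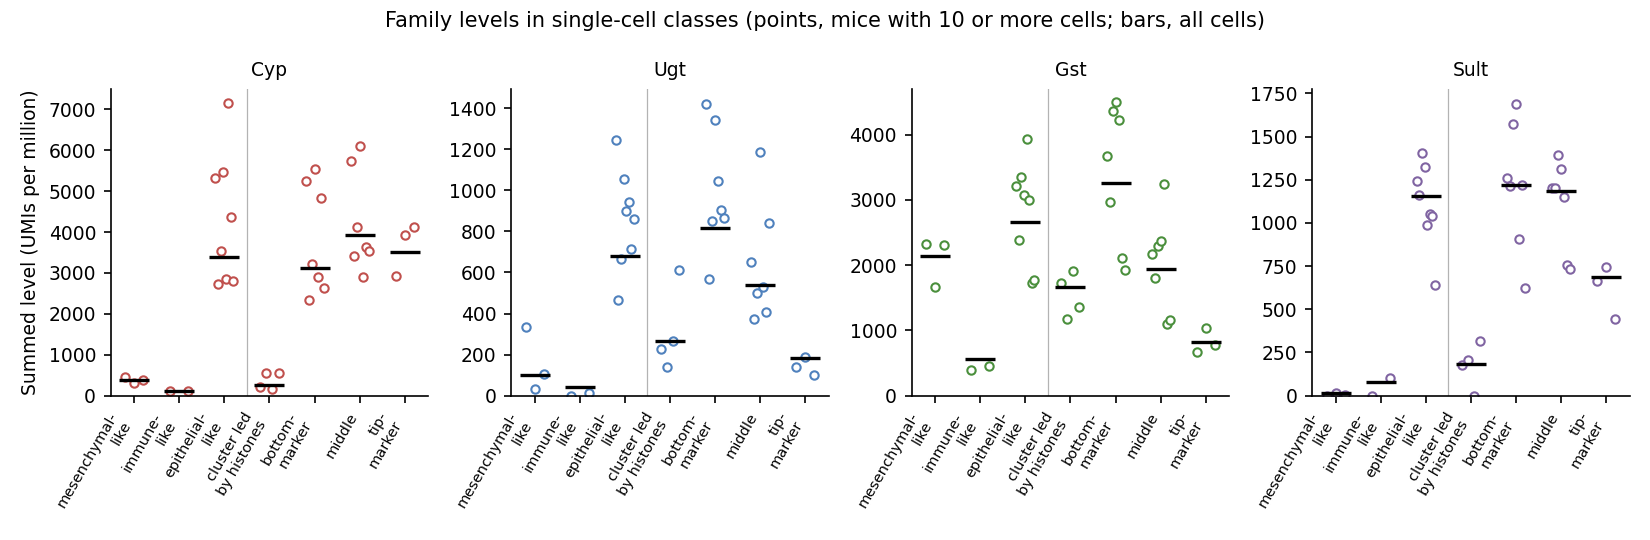
Summed level of each family in single-cell classes, in CPM of the class, with points for mice with at least 10 cells and bars for all cells of the class. The *Gst* bar of mesenchymal-like cells (2145) is near that of epithelial-like cells (2666), and the *Gst* bar is at 3265 in the bottom-marker range and at 829 in the tip-marker range.

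Of the mesenchymal *Gst* mRNA, *Gstm1* had the largest part and *Gstp1* the next, at 279 CPM, below its 588 in epithelial-like cells. *Gstm1* was at 1180 CPM in mesenchymal-like cells and 114 in epithelial-like cells, a ratio of 10.4 (9.07 to 11.9), and mice A, B and C had 1110, 797 and 1360. *Gstm2*, at 210 CPM, had a ratio of 12 (8.50 to 16.9). *Gsta3*, at 49.4 CPM, had a ratio of 34.3 (12.5 to 117), from 20 and 5 UMIs. *Cyp27a1*, a mitochondrial sterol 27-hydroxylase, had a ratio of 3.94 (2.55 to 5.99). Over 56 members with enough UMIs, 8 had a higher level in mesenchymal-like cells (52.8% of all genes with as many UMIs did), 44 a lower one (46%), and 4 could not be placed because they had no UMI there. Of 54 members compared in immune-like cells, 3 had a higher value (*Ugt2b5* from 2 UMIs, *Gstt2* and *Gstz1*), 39 a lower one and 12 could not be placed, where 49.4% of genes were higher and 40.1% lower. The members were chosen from bulk epithelium and the genes beside them were not, so these shares are not like for like.

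Within the epithelium the families followed the villus axis in different ways. A cluster of 265 cells was villus tip-like by *Ada*, *Nt5e*, *Slc28a2*, *Apoa4*, *Klf4* and *Egfr*. Of these cells 133 came from gates set for doublets, against 425 of the 1376 other epithelial-like cells, and 56.2% came from mouse B. No cluster could be named villus bottom-like, and cells were therefore also split by the number of tip markers detected minus the number of bottom markers (*Reg3b*, *Reg3g*, *Nlrp6*, *Lypd8*, *Il18*, *Ccl25*). The bottom-marker range, at -2 or less, held 932 cells, the tip-marker range, at 2 or more, held 187, and 522 lay between. These are ranges of a score and not cell types: 309 cells stood at -2 and 83 at 2. Doublet gates gave 284 cells of the bottom-marker range and 77 of the tip-marker range. Median UMIs per cell were 1761.5, 1366.5 and 1464 in the bottom, middle and tip ranges, and 3 mice (B, C and D) had at least 10 cells in the tip range. Cells of the 3 ranges had a median of 3, 2 and 1 UMIs of the 5 villus center markers and of 0 UMIs of the goblet, Paneth, cycling, immune and mesenchymal markers.

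The summed *Gst* level was 3265 CPM in the bottom-marker range, 1947 in the middle and 829 in the tip-marker range. By mouse it was 2972, 4355 and 4494 at the bottom and 673, 1034 and 771 at the tip for mice B, C and D, so the 2 ends did not overlap. The *Ugt* sum was 819 at the bottom, 537 in the middle and 181 at the tip, and by mouse 569, 848 and 1341 against 142, 190 and 101. *Sult* was at 1216, 1186 and 685. *Cyp* was at 3119, 3937 and 3510, and mice B and C had a higher *Cyp* sum at the tip (2927 and 3920) than at the bottom (2335 and 3210), while mouse D had a lower one (4119 against 5551). In the villus tip-like cluster the sums were 3699 for *Cyp*, 267 for *Ugt*, 1000 for *Gst* and 756 for *Sult*, against 3331, 752, 2955 and 1228 in the other epithelial-like cells. Without the doublet gates the cluster's sums were higher, at 604 for *Ugt* and 1583 for *Gst*. The largest ratios of the cluster to other epithelial-like cells were those of *Cyp4f37* (15.6 CPM from 8 UMIs, against 4.39), *Cyp3a41b* (21.4 from 11 UMIs, against 7.43) and *Cyp3a13* (982 against 424).

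By gene, 49 members had at least 20 UMIs in the cells compared, 13 had a higher level at the tip than at the bottom and 36 a lower one, and the median ratio of tip to bottom was 0.392. The limit was on both ranges together. The bottom range held 2172072 UMIs and the tip range 325648, so genes passed it mainly through the bottom. Over all 8239 genes with as many UMIs, 29% were higher at the tip, 70.2% were lower and the median ratio was 0.635, so the share of lower members as a whole was near that of all genes. All 3 *Ugt* and 16 of 17 *Gst* members were lower at the tip, with median ratios of 0.188 and 0.211, and *Cyp* was mixed, with 11 higher and 15 lower and a median of 0.7. In all 3 mice 33 members were lower at the tip and 3 were higher, where 44.1% of genes were lower in all 3 and 10.2% higher.

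Among members with a UMI at the tip, *Gsta1*, *Gstm3* and *Gsta4* had the lowest ratios. *Gsta1* was at 436 CPM in the bottom-marker range (946 UMIs), 67.5 in the middle and 3.07 at the tip (1 UMI), a ratio of 0.00705 (0.000178 to 0.0394). By mouse its bottom level was 337, 766 and 764 and its tip level 0, 8.27 and 0. *Gstm3* was at 500.4 and 6.14, a ratio of 0.0123 (0.00148 to 0.0444), and *Gsta4* had a ratio of 0.0483 (0.00122 to 0.274). *Gsta2* had 152 UMIs at the bottom and 0 at the tip, a ratio of at most 0.132 by a floor of 3 UMIs. *Gstp1* was at 761 and 132, a ratio of 0.174 (0.125 to 0.235). *Gsto1* had a milder ratio of 0.626 (0.529 to 0.736). *Gstm5*, the exception, had a ratio of 2.72 (1.53 to 4.67).

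The *Cyp* genes differed between and within subfamilies. *Cyp3a11* was at 158 CPM at the bottom, 461 in the middle and 516 at the tip, a ratio of 3.27 (2.70 to 3.94). By mouse it was 124, 175 and 545 at the bottom and 390, 686 and 548 at the tip, so mouse D hardly differed. *Cyp3a13* was at 370 and 1109, a ratio of 3.00 (2.64 to 3.40), with 259, 423 and 821 at the bottom and 822, 1150 and 1887 at the tip by mouse, higher at the tip in each. *Cyp3a25*, of the same subfamily, went the other way, with a ratio of 0.158 (0.0678 to 0.316). The 6 *Cyp2c* genes with enough UMIs were lower at the tip: *Cyp2c65* was at 163, 133 and 46.1 from bottom to tip, *Cyp2c55* had a ratio of 0.0542 (0.00136 to 0.308), and *Cyp2c68* had 183 UMIs at the bottom and 0 at the tip, a ratio of at most 0.109 by the same floor. Under the limit, *Cyp2c29* went the other way, with 7 UMIs at the bottom (3.22 CPM) and 3 at the tip (9.21 CPM), and *Cyp2c44* had 8 and 0 UMIs. *Cyp2c68* and *Cyp3a11* both carry the CAAAGTCCA motif printed above, and their levels along the axis run in opposite directions.

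**Figure D5:**
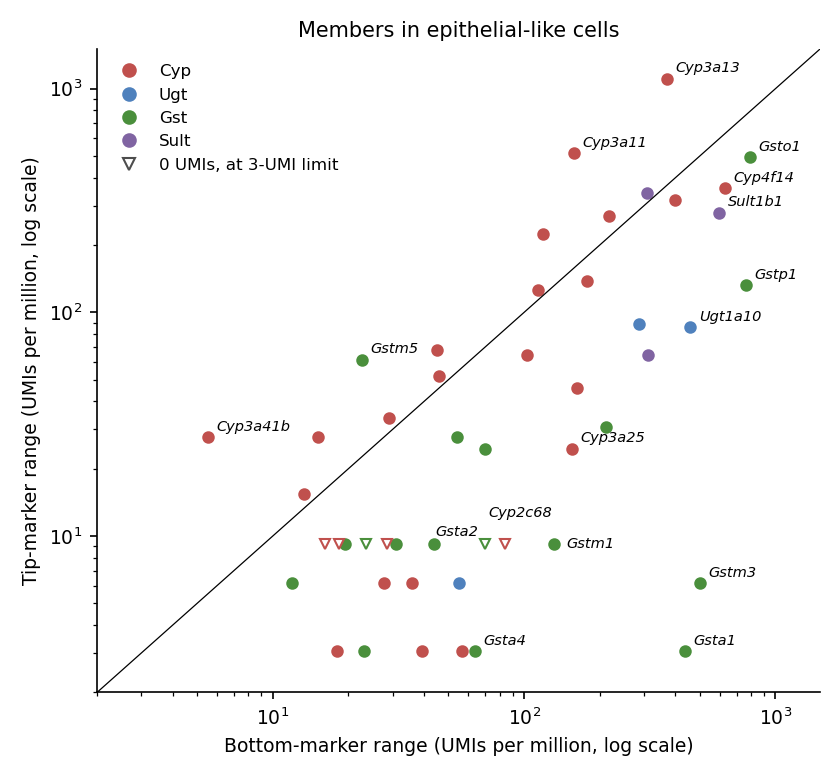
Level of each compared member in the tip-marker range against its level in the bottom-marker range, in CPM on log axes, with triangles for members with 0 UMIs at the tip, placed at the limit of 3 UMIs. *Cyp3a11* (158 and 516) and *Cyp3a13* (370 and 1109) lie above the line of equal levels, and *Gsta1* (436 and 3.07) and *Gstm3* (500.4 and 6.14) lie far below it.

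Conjugating enzymes of the other families were lower at the tip with 1 exception. *Ugt1a10* was at 459 and 86.0, a ratio of 0.188 (0.124 to 0.273), and *Ugt2b34* at 286 and 89.1, a ratio of 0.311 (0.207 to 0.451). *Sult1d1* had a ratio of 0.207 (0.127 to 0.319) and *Sult1b1* one of 0.468 (0.374 to 0.580). *Sult2b1* was at 308 and 341, a ratio of 1.11 (0.897 to 1.35) that does not differ from 1 beyond counting error.

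A cluster of 124 epithelial-like cells led by histone genes and *Stmn1*, in which 44.4% of cells had a UMI of a cycling marker, had lower sums of all 4 families than epithelial-like cells as a whole. Its sums were 270 CPM for *Cyp* (368 ± 207 over mice, SD, n = 4), 267 for *Ugt*, 1665 for *Gst* (1540 ± 338) and 184 for *Sult*. Of 54 members with at least 20 UMIs in the cells compared, 42 were lower there, 8 higher and 4 could not be placed. Of all genes with as many UMIs, 48.4% were lower and 50.1% higher. The cluster held 370568 UMIs and epithelial-like cells 3475228, so members passed this limit mainly through the latter. Members were also chosen from bulk epithelium, so these shares are not like for like. *Cyp3a13* was at 24.3 against 506. In 23 goblet-like cells, no mouse of which had 10 cells, *Gsta4* had 15 UMIs and a ratio of 5.79 (3.16 to 9.88) to other epithelial-like cells. Next stood *Cyp4f37*, from 1 UMI (15.7 CPM against 5.86), and *Cyp2j6*, from 10 UMIs (157 against 93.8). *Cyp1a1* had 8 UMIs in epithelial-like cells, in 0.305% of cells and in mice D and H only, and *Cyp2c29* had 22.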

How the data were processed

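Epithelial RNA of 8 mice was sequenced by mcSCRBseq and single cells by MARS-seq. The authors counted UMIs per gene with zUMIs against GRCm38 (reads converted with bcl2fastq 2.15.0.4 per the submitters' processing notes), and the deposited counts are raw UMI counts for both kinds of library. The members and the gene lists were chosen with earlier results of these data known.

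Bulk counts were tested with edgeR 4.0.16 (R 4.3.3; TMM, robust quasi-likelihood fit, batch as covariate, Benjamini-Hochberg adjustment over all genes tested), on genes with over 1e-05 of a sample's UMIs in at least 2 samples. Scaled CPM are counts over TMM-scaled library sizes. DESeq2 1.42.0 was an alternative. Same-numbered samples of the groups shared a batch, and the correlations of their deviations from the group means were 0.61, 0.41, 0.66 and 0.58, and -0.16 and -0.06 once each batch was centred, so the pairing comes from batch, which the main fit holds.

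Single cells were clustered with Seurat 5.3.0 (11 components, 30 neighbours, resolution 2 for all cells and 0.8 for epithelial-like cells). Clusters of all cells were named where a marker list led the next by 0.25 in log2 with at least 3 markers detected. Epithelial clusters were named where at least 3 markers of the leading list were detected, at least 50% of cells held one, and at least 1 stood among the 10 leading genes with no more markers of other lists. These limits and the marker ranges were set after seeing the data. No doublet caller was run. The study subtracted a background of empty wells, and the values here are without that step. Wells carry 380 distinct barcodes, which plates share by design. The 352 columns whose plate has no counterpart among the samples and the laser-capture tables were not used here. Genes named are the 5 members with the most UMIs in each family, those nearest the 20 UMI limit, the 3 with the largest ratio in each class, *Akr1b8* and *Lgr5*. Other members and companions, such as *Gstm7*, *Gstt2*, *Cyp1a1*, *Cyp2c29* and *Cyp4a10*, were named after their values were seen.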

Additional observations from a re-analysis of the deposited data

Results flagged for a closer look

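Among groups of 4 bulk samples, 5 of the members named by rule had a sample far from the other 3 by Dixon's ratio, which chance gives in about 1 group in 20. In the control group these were *Cyp4f14* in control 2 (230.8 scaled CPM, low), *Gsta1* in control 4 (1028, high) and *Gstz1* in control 3 (31.3, low). In the DT group they were *Sult2b1* in DT 3 (54.8, low) and *Ugt2b5* in DT 3 (127, high). *Cyp1a1* and *Cyp2c29*, named only after their values were seen, were not in this list and also stood apart in DT 3 (307 and 152, high). Over all 49 tested members, 3 control groups (6.12%) and 5 DT groups (10.2%) had such a sample, against 5.00% and 4.55% of all genes tested.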

How the results depend on the processing

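Members called at an adjusted p under 0.05 were 0 higher and 0 lower under every alternative run, except that 6 were higher without the filter on low counts, where the interaction with batch was also called for 2 members. Over all genes, 45 were higher and 114 lower with DESeq2, 302 and 333 without the filter, 65 and 149 at an adjusted p under 0.2, 0 and 1 without the batch term, 0 and 0 within batch a, and 0 and 5 within batch b. Without the robust option 4 were higher, and with library size alone 19 were lower. Leaving out 1 sample gave 0 to 6 genes higher and 3 to 38 lower. At an adjusted p under 0.2, edgeR called 3 members higher without DT 1 (*Gsta1*, *Gstm7*, *Gstt2*), 4 without DT 4 (these and *Gsta4*), and 1 lower without control 2 (*Cyp4v3*). With the replicate number as a block in place of batch (pairing), 0 genes were higher and 3 lower, and *Akr1b8* was lost (adjusted p = 0.0703), while no member's call changed.

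*Akr1b8* was also lost without the batch term (edgeR adjusted p = 0.913), within batch b (0.0546), and without control 1 (0.103), control 2 (0.0663), control 3 (0.0765), control 4 (0.103), DT 3 (0.122) or DT 4 (0.0632). Of 23 named genes, 7 changed the sign of their log2 fold change without DT 3 and 0 to 4 under the other alternatives. The median shift over all genes was 0.004, and 0.06 with library size alone. The cause of these shifts was not tested.

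In immune-like cells the *Cyp* sum was 132.7 CPM with lower limits on cells and 110.6 without the doublet gates, where *Ugt* was 6.51 and *Gst* 456. Leaving out 1 mouse moved *Cyp* between 115.1 and 120.6, *Ugt* between 6.40 and 93.5, *Gst* between 448 and 748, and *Sult* between 44.8 and 174 in these cells, and *Sult* between 7.49 and 29.7 in mesenchymal-like cells. Without the doublet gates the villus tip-like sums were 5488 for *Cyp*, 604 for *Ugt*, 1583 for *Gst* and 1042 for *Sult*, and with lower limits *Ugt* was 189 and *Gst* 784. In epithelial-like cells, those outside the villus tip-like cluster and the bottom-marker and tip-marker ranges, no sum moved beyond the spread between mice, and the middle range, goblet-like cells and the histone-led cluster were not rerun. Depth limits the low members most: 1 UMI stood for up to 1.47 CPM in bulk and 3.07 in the tip-marker range.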

Other observations

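At another clustering resolution (1 for all cells and 1.2 for epithelial-like cells) a cluster of 192 cells passed as villus bottom-like, with sums of 2895 CPM for *Cyp*, 1078 for *Ugt*, 4718 for *Gst* and 1448 for *Sult*. Its *Gst* sum lay above and its *Cyp* sum below those of the bottom-marker range (3265 and 3119).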
